A study of Homo sapiens with 12 samples.

Results

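The short arm of human chromosome 5 was described as the window from its tip to 46000000 on hg19, with every interval of all 10 deposited lists that lies in it, fully or in part. It held 8069 of the 416692 intervals: 2912 of 52174 H3K9me2 islands, 4865 of 329043 H3K9ac peaks of single libraries and 292 of 35475 reproducible H3K9ac regions. The arm was chosen by the H3K9me2 coverage of these same libraries, so its level of H3K9me2, and its excess over other regions, are given as a description with no test. It is set against a window of the long arm, 50000000 to 180000000, which held 4158 islands and 14433 peaks.

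The cells were MDA-MB-231, an established human triple negative breast cancer line, serum starved overnight. Treated cells then had DETA/NO, a slow donor of nitric oxide, at 500 µM for 24 h, and untreated cells did not. Chromatin immunoprecipitation and sequencing was done for 2 modifications of lysine 9 of histone H3, its dimethylation (H3K9me2) and its acetylation (H3K9ac), with 2 biological replicates of each condition and mark. All 8 libraries came from 1 cell line, copy number was not measured, and the lists hold positions and scores but no read counts, so the depth behind an interval is unknown.

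H3K9me2 is a mark of silent chromatin that is laid down over long stretches by the methyltransferase pair EHMT1 and EHMT2. Enzymes that remove it include iron-dependent demethylases. H3K9me2 typically fills gene-poor DNA and the bodies of genes that a cell does not use. H3K9ac sits on the same residue, so a single histone tail cannot carry both, and it marks active promoters and enhancers. In a RefSeq table of GRCh38.p14, used for names and order alone, IRX2 and IRX1, homeobox genes of tissue patterning, stand next to each other on the arm. CDH18, CDH12, PRDM9, CDH10 and CDH9 follow one another as the 89th to 93rd protein-coding gene from the tip: 4 of them encode cadherins, cell adhesion proteins of the nervous system, and PRDM9 encodes the methyltransferase that places meiotic recombination. No gene positions on hg19 were used here, so no gene was placed on an interval.

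H3K9me2 islands covered about the same large share of the arm in every library. The covered share was 48.1% and 47.6% in the treated libraries and 49.2% and 50.3% in the untreated libraries, replicates 1 and 2 in that order. In the long-arm window it was 13.8% and 8.49% in treated and 9.35% and 10.7% in untreated cells. The arm thus had between 3.49 times the long-arm share, in treated replicate 1, and 5.61 times, in treated replicate 2. Treated cells averaged 47.8% ± 0.399 of the arm and untreated cells 49.7% ± 0.792 (SD, n = 2 each), with both treated libraries below both untreated ones. The difference of -1.88 percentage points had an exact two-sided permutation p of 0.33, which is the smallest that 2 libraries against 2 allow.

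**Figure D1:**
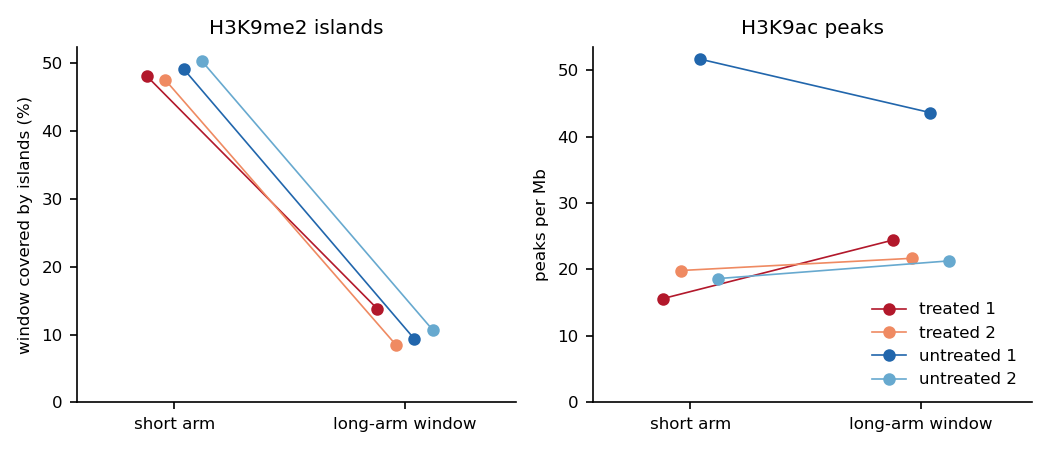
Share of each window covered by H3K9me2 islands (left, %) and number of H3K9ac peaks per Mb (right) on the short arm and in the long-arm window of chromosome 5, with 1 line per library. All 4 libraries lie between 47.6% and 50.3% H3K9me2 on the short arm, and untreated replicate 1 alone has more H3K9ac peaks per Mb there than on the long arm.

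Relative to the long arm the treated libraries lay lower as well. The arm exceeded the long-arm window by 34.4 and 39.1 percentage points in treated and by 39.8 and 39.6 points in untreated libraries. The means differed by -3.01 points (exact two-sided permutation p = 0.33), by -0.651 points without treated replicate 1 and by -5.38 points without treated replicate 2, so its size rested on treated replicate 1. Treated replicate 1 also had the most H3K9me2 on the long arm. The arm held 7.77% and 9.67% of all bases covered by islands in the treated libraries and 9.62% and 9.10% in the untreated ones.

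Individual islands on the arm were wide. Their median width was 28000 and 21500 bp in treated and 18500 and 24500 bp in untreated libraries, against 12500 and 13000 bp in treated and 11000 and 10500 bp in untreated libraries on the long arm. The conditions overlapped on the arm (exact two-sided permutation p = 0.667). The widest island spanned 205000 and 169000 bp in treated and 157500 and 238500 bp in untreated cells. On the arm 50.9% and 41% of the covered length lay in islands of at least 50 kb in treated, and 36.6% and 44.4% in untreated cells. On the long arm this share was at most 1.29%, in treated replicate 1, and no island there reached 100 kb in any library. The authors' own island scores are comparable only within a list. Of the 100 highest-scoring islands, 15 and 10 in the treated lists and 5 and 19 in the untreated lists lay on the short arm. In the long-arm window lay 0 in all 4 lists. Of all islands the arm held 614 of 14554 and 736 of 10590 in treated and 846 of 12573 and 716 of 14457 in untreated lists. In untreated replicate 1 the 5 of 100 was thus a smaller share than the arm had of all islands of that list.

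**Figure D2:**
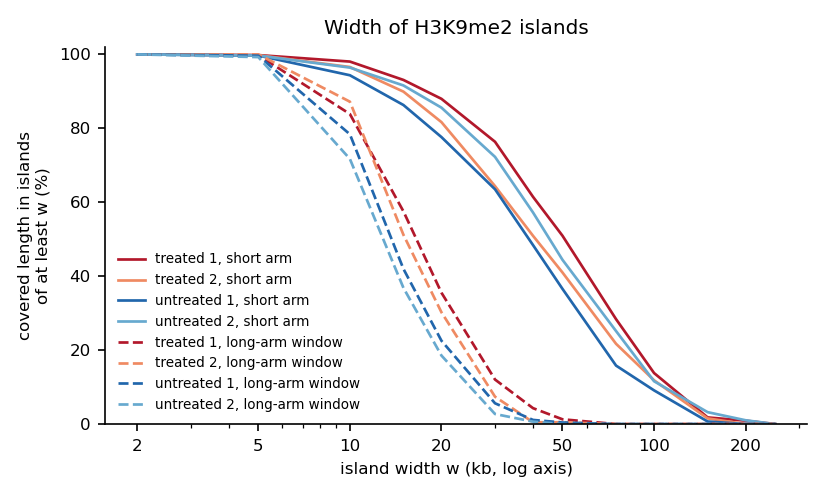
Share of the H3K9me2 covered length (%) that lies in islands of at least the width on the horizontal axis (kb, log scale), for each library on the short arm (solid) and in the long-arm window (dashed). At 50 kb the solid lines stand between 36.6% and 50.9% and the dashed lines at or below 1.29%.

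Gaps between islands were mostly short. The shortest gap was 2000 bp in all 4 libraries, on the arm and in the long-arm window alike, so this value is not particular to the arm. On the arm the median gap was 4500 and 3500 bp in treated and 3000 bp in both untreated libraries (exact two-sided permutation p = 0.33). In the long-arm window the median gap was 26000 and 36000 bp in treated and 24500 and 22500 bp in untreated cells. Of all gaps on the arm, 75.7% and 80.7% in treated and 86.0% and 82.1% in untreated cells were no longer than 20 kb. The islands carry running numbers, and some numbers are missing from the deposited lists, for a reason that the sources used here do not give: 181 and 146 gaps in the treated lists and 148 and 146 in the untreated lists skipped at least 1 number. Gaps with a skipped number had a median of 31000 and 32750 bp in treated and 32000 and 31000 bp in untreated lists. Gaps with none skipped had a median of 2500 and 3000 bp in treated and 2500 bp in both untreated lists.

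Joined across gaps of up to 20 kb, the islands formed domains of at least 100 kb that took 45.6% and 47.1% of the arm in treated and 51.8% and 49.4% in untreated cells. There were 51 and 55 domains in treated and 46 and 39 in untreated libraries, so each treated library had more domains than each untreated one, and they took less of the arm. Their median length was 254 and 309.5 kb in treated and 370.5 and 291 kb in untreated cells. The difference of -49.0 kb between condition means (exact two-sided permutation p = 0.667) was 1.0 kb when gaps of only up to 10 kb were joined. The longest domain was 2317 and 1104 kb in treated and 2191 and 5258 kb in untreated libraries. On the long arm domains took 4.35% and 2.06% of the window in treated and 3.07% and 3.17% in untreated cells, and the longest in any library was 296 kb.

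The placement of H3K9me2 on the arm was shared between libraries to a degree that its long-arm placement was not. Islands of all 4 libraries coincided over 14.05 Mb, 48.5% of the 28.99 Mb covered in any library, and 17.0 Mb of the arm carried no island in any of them. In the long-arm window 0.929 Mb, 2.71% of the covered length, was common to all 4. The Jaccard index over covered bases was 0.651 for the treated pair and 0.719 for the untreated pair on the arm, and between 0.675 and 0.716 for the 4 pairs across conditions. On the long arm these indices ran from 0.153 for the treated pair to 0.241 for the untreated pair. A larger covered share raises the overlap that 2 lists have by position alone, and its part in these indices was not tested.

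The longest stretches common to all 4 libraries lay at 15938501 to 16010000 (71.5 kb), 15298501 to 15367500 (69.0 kb), 31110001 to 31172500 (62.5 kb), 44287501 to 44348500 (61.0 kb) and 42168501 to 42228000 (59.5 kb). The second of these began at the same grid position, 15298501, in all 4 libraries, and its island ended at 15367500 and 15383500 in treated and at 15384500 and 15396000 in untreated cells. The first lay within an island from 15938501 to 16061000 and from 15936001 to 16062500 in treated replicates 1 and 2. In untreated replicates 1 and 2 that island ran from 15921501 to 16079000 and from 15938501 to 16010000.

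In bins of 1 Mb the arm alternated between filled and empty stretches. Of its 46 bins, 13 were covered to at least 70% in all 4 libraries and 23 to at least 50%, while 4 were under 5% in all. Of 130 bins in the long-arm window 0 reached 50% in all 4 libraries, and the highest mean was 39.5%. The best covered bins were 11000001 to 12000000, with a mean of 86.95% ± 1.54 over the 4 libraries, 12000001 to 13000000 with 86.2% ± 6.21, 19000001 to 20000000 with 84.7% ± 8.02, 24000001 to 25000000 with 84.2% ± 7.81 and 18000001 to 19000000 with 83.7% ± 4.21 (SD, n = 4). The first of these had 85.2% and 88.9% in treated and 86.6% and 87.3% in untreated cells, a range narrower than that of any other of the 5. The emptiest bins were 14000001 to 15000000, at 0 in every library, and the outermost bin at the tip, at 0 in both treated libraries and at 0.650% and 0.4% in the untreated ones. Next came 33000001 to 34000000, 34000001 to 35000000 and 32000001 to 33000000, with means of 0.825%, 2.64% and 3.05%.

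Walking inward from the tip, the first 2 Mb carried almost no H3K9me2, at 1.68% and 2.05% in treated and 3.25% and 1.5% in untreated cells. The stretch from 2000001 to 10000000 was covered to 39% and 57.6% in treated and 55.6% and 49.7% in untreated cells, so the treated pair differed more than the conditions did. After a thin bin at 10000001, the stretch from 11000001 to 14000000 was covered to 84.8% and 82.8% in treated and 81.2% and 83.2% in untreated libraries, nearly alike in all 4. The longest filled stretch, 13 Mb from 18000001 to 31000000, had 83.5% and 71.5% in treated and 76.1% and 85.1% in untreated cells. Coverage then fell away, to 0.983% and 0.167% in treated and 4.20% and 3.33% in untreated cells from 32000001 to 35000000. A last filled stretch, from 41000001 to 43000000, held 73.6% and 75.2% in treated and 73.8% and 73.4% in untreated cells. These stretches were bounded after the bins had been seen.

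**Figure D3:**
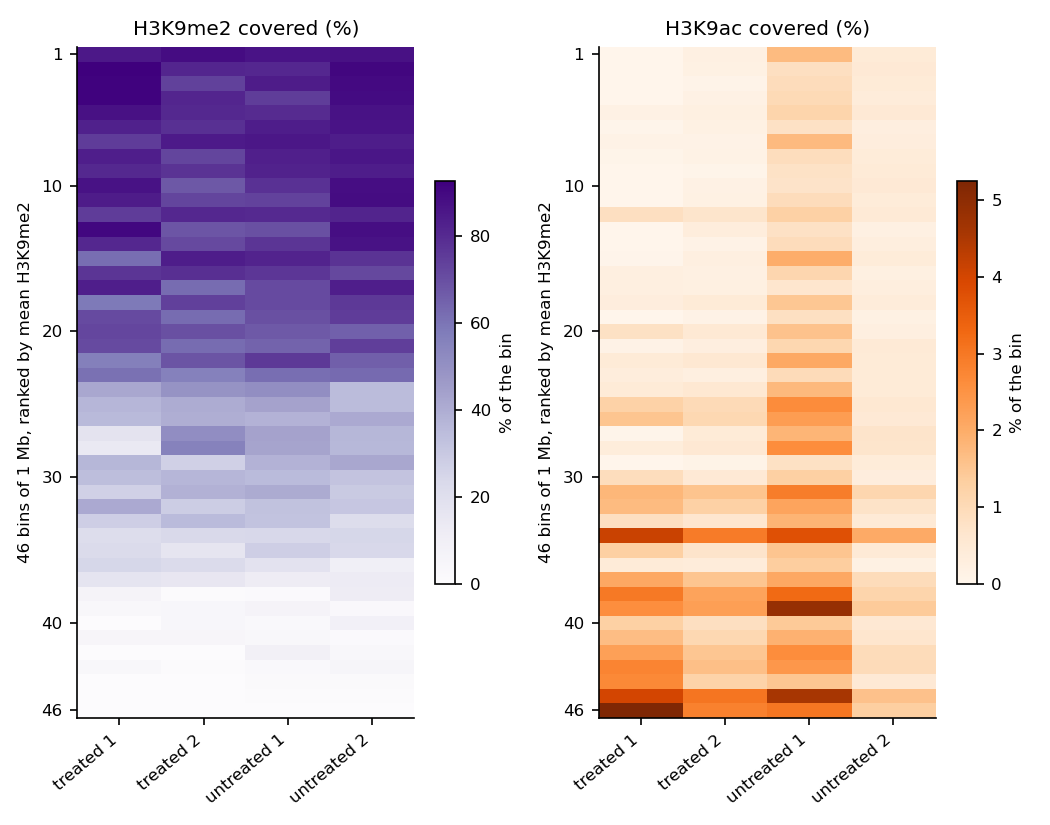
Share of each 1 Mb bin of the short arm covered by H3K9me2 (left, %) and by H3K9ac peaks (right, %), with the 46 bins ranked from the highest mean H3K9me2 at the top to the lowest at the bottom and 1 column per library. H3K9ac is paler in the upper rows than in the lower ones in the treated columns, and the bin in the last row, with 0 H3K9me2, has 5.25% and 2.85% H3K9ac in treated and 3.03% and 1.32% in untreated libraries.

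The libraries differed across the arm in a way that did not follow treatment. From 18000001 to 31000000 treated replicate 1 and untreated replicate 2 had 254 and 351 islands with medians of 36.2 and 24.0 kb, whereas treated replicate 2 and untreated replicate 1 had 402 and 466 islands with medians of 17.5 and 16.0 kb. From 2000001 to 10000000 the order was the other way, with treated replicate 2 and untreated replicate 1 covered more than treated replicate 1 and untreated replicate 2. The bins with the widest range over the 4 libraries were 3000001 to 4000000, with 13.75% and 55.6% in treated and 43% and 36.3% in untreated cells, and 2000001 to 3000000, with 17.6% and 51.2% in treated and 43.6% and 36.9% in untreated cells. In 26000001 to 27000000 the values were 90.2% and 68.2% in treated and 69.4% and 88.1% in untreated cells. In these 3 bins the treated pair differed by more than the condition means did, and the conditions overlapped.

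No bin of the arm passed the test for a change of H3K9me2 with treatment. limma, fitted to the arcsine square root of the covered share over 1735 bins of the genome, called 0 higher (0.0%) and 0 lower (0.0%) at a Benjamini-Hochberg adjusted p under 0.05, and so 0 of the 45 bins of the arm that carried islands. At an unadjusted p under 0.05 it was 2 of these 45, against 2.77% of all bins: the neighbours 32000001 to 33000000 and 33000001 to 34000000. These had 0 in both treated libraries, against 8.9% and 3.3% in the untreated libraries in the first and 1.6% and 1.7% in the second (limma, adjusted p = 0.948 for both). Both treated libraries lay below both untreated ones in 9 of the 45 bins, against 12.4% of all bins, and above them in 5, against 13.5%.

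The largest differences of H3K9me2 between condition means were small beside the range over the arm. The most positive was 9.40 points at 35000001 to 36000000, with 24.45% and 22.4% in treated and 18.1% and 9.9% in untreated cells (limma, adjusted p = 0.948). It was followed by 4.73 points at 31000001 to 32000000 and 4.70 points at 42000001 to 43000000. The last of these had 72.2% and 69.7% in treated and 67.2% and 65.3% in untreated cells, so the conditions did not overlap. The most negative were -8.30 points at 7000001 to 8000000, -8.22 points at 45000001 to 46000000 and -7.12 points at 8000001 to 9000000. Without untreated replicate 2 the difference at 31000001 was -0.825 points, and without treated replicate 1 that at 8000001 was 0.7 points. The difference at 7000001 was -2.25 points without treated replicate 1 and -14.35 points without treated replicate 2, and -3.3 and -13.3 points without untreated replicates 1 and 2. That at 45000001 was -13.1 points without treated replicate 1 and -3.33 points without treated replicate 2. That at 35000001 was 5.3 points without untreated replicate 2. In 7000001 to 8000000 the treated libraries had 56.4% and 68.4% and the untreated libraries 75.7% and 65.7%, so the conditions overlapped.

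Some edges of the filled stretches lay close together in all 4 libraries and others did not. The longest stretch free of islands in all 4 libraries ran from 13925001 to 15029000, 1104 kb. The last island before it ended at 13921000 and 13911000 in treated and at 13925000 and 13923000 in untreated cells, a range of 14 kb. The first island after it began at 15038001 and 15033001 in treated and at 15032501 and 15029001 in untreated cells, a range of 9 kb. Positions are on a 500 bp grid, so these ranges are small beside the 1104 kb between the edges. There were 32 such island-free stretches of at least 100 kb, 12.26 Mb in all, and 10 of at least 500 kb. They were singled out after their values had been seen.

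Other edges lay much farther apart between libraries. Around the island-free stretch from 16599501 to 17439500 the last island before it ended at 16599500 and 16529000 in treated and at 16508500 and 16419500 in untreated cells, a range of 180 kb, and the first after it began within a range of 196 kb. In the stretch from 42844001 to 43443500 the left edge held to 49.5 kb, while the right edge ranged over 318 kb, with untreated replicate 2 having an island at 43443501, where the other 3 libraries began between 43724501 and 43761501. From 31688501 to 34079000 the treated libraries had no island at all, with gaps that began at 31688500 and 31360000 and ended at 34154001 and 34079001. The untreated libraries had islands within it. These gaps were the longest of the arm in the treated libraries, at 2465500 and 2719000 bp, against 1520500 and 1590500 bp for the longest in the untreated ones. In untreated replicate 1 the longest gap lay in the same stretch, from 31333000 to 32853501, and in untreated replicate 2 it lay near the tip, from 383500 to 1974001.

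Bases covered by islands of at least 3 of the 4 libraries, joined across gaps of up to 20 kb, formed 36 domains of at least 100 kb. These were from 105 to 1934.5 kb long with a median of 499 kb, and took 48.6% of the arm. The longest ran from 18765001 to 20699500, followed by 11151501 to 12794000 (1642.5 kb) and 23528501 to 25159000 (1630.5 kb). Each library's nearest domain edge of the same side lay at a median of 17.0 and 10.0 kb from the 72 edges of these domains in treated and of 6 and 21.75 kb in untreated libraries. It lay within 10 kb for 33 and 37 of the 72 edges in treated and for 42 and 28 in untreated libraries. For 17 and 13 of the 72 edges in treated and 16 and 21 in untreated libraries it lay more than 100 kb away. All 4 libraries helped to set these edges, so the offsets are smaller than those from edges of an unrelated sample would be.

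The bound of the window at 46000000 did not fall at an edge of H3K9me2. An island crossed it in treated replicate 2 and in both untreated libraries. The megabase just inside was covered to 36.8% and 26.9% in treated and 38.3% and 41.9% in untreated cells, and the megabase just outside to 12% and 31.3% in treated and 32.7% and 30.6% in untreated cells. From 47000001 to 49000000 neither mark was called in any library. The lists do not tell an absent mark from sequence to which no read can be mapped. Shares outside the bound were not corrected for unmappable sequence, so they are not read as a fall or an end of H3K9me2.

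H3K9ac on the arm was dominated in number by 1 library, untreated replicate 1, which also had the longest list over the genome. Its list held 120630 peaks, against 59724 in untreated replicate 2 and 79538 and 69151 in treated libraries. On the arm there were 718 and 913 peaks in treated and 2377 and 857 in untreated libraries. These covered 461.5 and 354.4 kb in treated and 807 and 272.5 kb in untreated cells. The difference in covered length was -132 kb (exact two-sided permutation p = 1) and turned to 135 kb without untreated replicate 1. It was also positive, at 62.8 kb, when each list was cut to the length of the shortest by the authors' score. Of the peaks of untreated replicate 1 on the arm 30.8% scored above the median of its own list. That share was 44.1% in untreated replicate 2, and 46.8% and 34.4% in the treated libraries.

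Peaks per Mb were lower on the short arm than in the long-arm window in 3 of 4 libraries. There were 15.6 on the arm against 24.4 on the long arm in treated replicate 1, 19.8 against 21.7 in treated replicate 2 and 18.6 against 21.3 in untreated replicate 2. Untreated replicate 1 had 51.7 on the arm against 43.6 on the long arm. The mean difference was -1.32 peaks per Mb (exact two-sided sign-flip permutation test over the 4 libraries, p = 0.625; the smallest p it allows is 0.13), and 1.19 without treated replicate 1. Among peaks above the median score of their list all 4 libraries had fewer on the arm, with differences of -4.32 and -2.81 per Mb in treated and of -2.94 and -1.32 in untreated cells.

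H3K9ac was higher in bins with little H3K9me2 than in filled bins, in every library. In the 8 bins with under 10% H3K9me2 in all libraries H3K9ac peaks covered a mean of 28.1 and 18 kb per Mb in treated and 27.9 and 9.91 kb per Mb in untreated cells. In the 13 bins with at least 70% they covered 1.15 and 1.91 kb per Mb in treated and 10.9 and 3.91 kb per Mb in untreated cells. Over the 46 bins the rank correlation of H3K9ac with mean H3K9me2 was -0.85 and -0.82 in treated and -0.67 and -0.58 in untreated libraries, a description over bins that share libraries and neighbours. The 13 filled bins held a median of 2 and 10 peaks in treated and 34 and 18 in untreated libraries, so the untreated lists had more peaks in filled bins than the treated lists did. The 8 bins with little H3K9me2 held a median of 40.5 and 31 peaks in treated and 60.5 and 19 in untreated libraries. By number of peaks the 2 kinds of bin were thus nearly alike in untreated replicate 2.

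Counted by peak, both treated libraries had a smaller share of their H3K9ac peaks in H3K9me2 islands than both untreated ones. On the arm 6.55% and 36.0% of the treated peaks and 50.3% and 54.3% of the untreated peaks touched an island of any H3K9me2 library, where such islands took 63.0% of the arm. The difference of -31.0 points had an exact two-sided permutation p of 0.33, the smallest possible, and was -16.3 points without treated replicate 1 and -45.7 points without treated replicate 2. The order of the conditions was the same with lists of equal length, at 2.97% and 29.9% in treated and 43.2% and 54.3% in untreated libraries. It was also the same among peaks above the list median score, at 0.298% and 12.7% in treated and 43.1% and 37.8% in untreated libraries. The same order held over the long-arm window, at 2.77% and 8.69% in treated and 17.8% and 18.4% in untreated libraries, and over the genome, at 1.59% and 5.76% in treated and 13.6% and 12.5% in untreated libraries, so it was not confined to the arm. Peaks that touched islands had lower scores than the other peaks of the same list: their median score was 1.33 and 1.45 in treated and 1.27 and 1.16 in untreated lists, against 3.21 and 2.49 in treated and 1.37 and 2.00 in untreated lists for the other peaks.

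**Figure D4:**
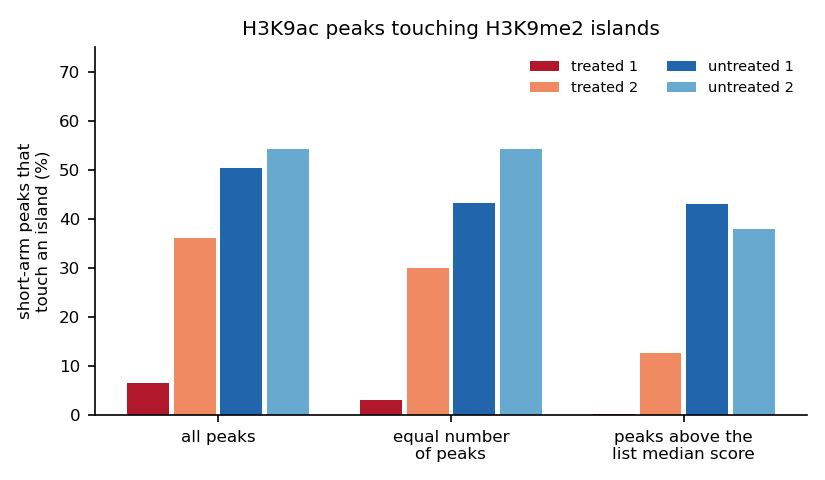
Share of the H3K9ac peaks of the short arm (%) that touch an H3K9me2 island of any library, for all peaks, for lists cut to equal numbers of peaks and for peaks above the median score of their list, with 1 bar per library. In each group of bars both treated libraries stand below both untreated ones.

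H3K9ac differed across domain edges more in the treated libraries than in the untreated ones, by description and with no test. Within the domains, up to 20 kb from an edge, peaks took 0.208 and 1.34 bp per kb in treated and 11.95 and 2.92 bp per kb in untreated cells. From 20 to 50 kb outside they took 19.7 and 13.8 bp per kb in treated and 20.8 and 8.98 bp per kb in untreated cells. The first 20 kb outside lay between these, at 4.86 and 4.75 bp per kb in treated and 14.1 and 3.83 bp per kb in untreated cells. More than 100 kb inside, levels were 0.151 and 1.53 bp per kb in treated and 10.5 and 3.50 bp per kb in untreated cells, close to the values just inside the edge.

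**Figure D5:**
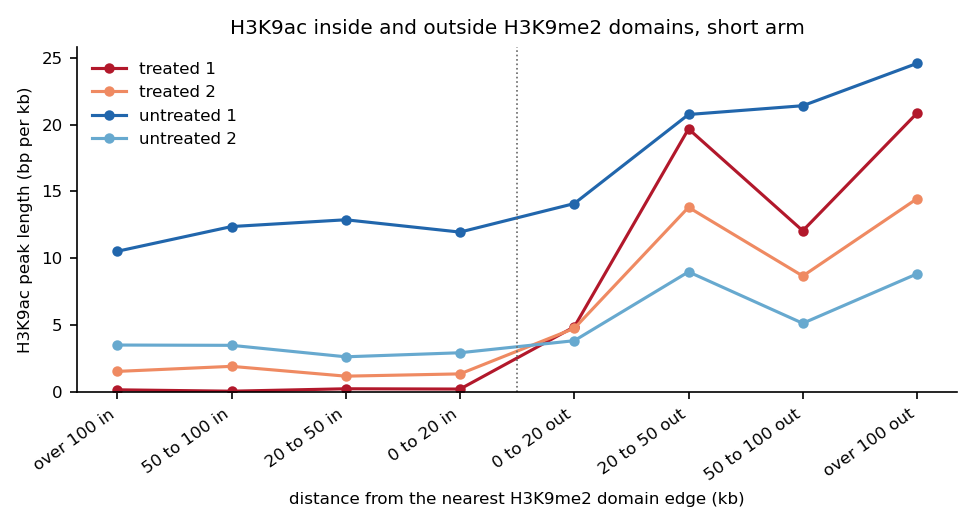
Length of H3K9ac peaks (bp per kb of the short arm) by distance from the nearest edge of an H3K9me2 domain, for each H3K9ac library. Domains join bases covered by islands of at least 3 libraries. The inside of the domain is left of the dotted line and the outside is on the right. Both treated libraries lie below both untreated ones at every distance inside, and all 4 are higher at 20 to 50 kb outside than inside.

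The stretch from 13925001 to 15029000, free of H3K9me2, was rich in H3K9ac. It held 74 and 46 H3K9ac peaks in treated and 77 and 32 in untreated libraries, covering 54.9 and 29.3 kb in treated and 33.2 and 13.4 kb in untreated cells. The shorter island-free stretch from 42844001 to 43443500, 599.5 kb long, was covered over 35.8 and 24.0 kb in treated and 27.2 and 14.3 kb in untreated cells, more for its length in all 4 libraries. The bin at 14000001 had the largest positive difference of H3K9ac on the arm, 1.88 points (limma, adjusted p = 0.647), but treated replicate 2, at 2.85%, lay below untreated replicate 1, at 3.03%. The next were 0.948 points at 33000001 to 34000000 and 0.620 points at 43000001 to 44000000, which was -0.241 points without untreated replicate 2. The most negative were -1.20 points at 3000001 to 4000000, -1.04 points at 4000001 to 5000000 and -1.04 points at 2000001 to 3000000. The first of these had 0.365% and 0.541% in treated and 2.61% and 0.693% in untreated cells (limma, adjusted p = 0.405). Without untreated replicate 1 these 3 differences were -0.24, -0.248 and -0.472 points, and without untreated replicate 2 they were -2.16, -1.83 and -1.60 points. Without treated replicate 1 the difference at 14000001 was 0.675 points and that at 33000001 was 0.201 points, and without treated replicate 2 they were 3.08 and 1.70 points.

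For H3K9ac limma called 0 of 46 bins of the arm in either direction, and 0 of 2879 bins of the genome (0.0% higher and 0.0% lower). At an unadjusted p under 0.05 it was 14 of 46, against 12.6% of all bins. Without untreated replicate 2 it called 25 bins of the arm, all lower, against 25.4% of the bins of the genome lower and 0.0695% higher. Without untreated replicate 1 it called 2, both lower, against 0.976% of the bins of the genome lower and 0.174% higher. Both treated libraries were below both untreated ones in 20 of 46 bins, against 24.3% of all bins, and above them in 0 of 46, against 20.0% of all bins. These bins rest on the same 4 libraries and are not separate evidence.

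The authors' reproducible H3K9ac sets, 1 per condition, held 170 regions on the arm in treated and 122 in untreated cells, which covered 333 and 161 kb. That is 3.70 and 2.65 regions per Mb, against 5.95 and 4.69 in the long-arm window. The regions had a median width of 1698 bp in treated and 1233.5 bp in untreated cells. Treated regions outnumbered untreated ones in 20 bins and were outnumbered in 7, and 11 of 46 bins had none in either set. The treated set was also the larger over the genome, at 21098 regions against 14377, and in the long-arm window, at 773 against 610. Its larger size was thus not confined to the arm. The bin at 14000001 held 18 regions in treated and 8 in untreated cells. There is 1 set per condition, and its size depends on how alike the replicates were, so these counts have no replicate error.

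The highest-scoring treated regions lay at 5420944 to 5424311, 442042 to 444984, 36150035 to 36152101, 32311397 to 32313137 and 10759811 to 10762190, with authors' scores of 6.05 to 6.19. The first of these, 3368 bp wide, was covered by peaks over 3086 and 3201 bp in treated and over 2466 and 1642 bp in untreated libraries. The highest-scoring untreated regions were 217814 to 219479, 36875208 to 36878336, 32585568 to 32587201, 36240636 to 36242701 and 43065490 to 43069309. All 10 carried peaks in all 4 libraries, and the first untreated one was covered over its full 1666 bp in both treated libraries and over 1535 and 1666 bp in the untreated ones.

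Of the 170 treated regions 32, or 18.8% (95% Wilson interval 13.7 to 25.4), met no peak in either untreated library, against 15.1% over the genome and 19.3% in the long-arm window. The count rose to 57 without untreated replicate 1, and it was 4 when the treated set was cut to the number of untreated regions by score. Of the 122 untreated regions 15, or 12.3% (7.59 to 19.3), met no peak in either treated library, against 4.4% over the genome and 5.90% in the long-arm window. Of these 15 regions, 10 touched an H3K9me2 island of some library, where such islands took 63.0% of the arm. Such counts were not made for reproducible regions outside the arm. No other untreated region of the arm touched such an island. Of the 170 treated regions 0 touched one; with 3 regions taken as the limit that a count of 0 allows, the share could be up to 1.76%.

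Gained regions with the highest scores included 8456899 to 8457658, 14034984 to 14036162, 17118436 to 17119575, 14189716 to 14190514 and 14810078 to 14810685, so 3 of the 5 lay in the H3K9me2-free stretch near 14 Mb. The first, 760 bp wide, was covered over 760 and 602 bp in treated and over 0 bp in both untreated libraries, and it ranked 8124th of 21098 treated regions. Regions found in untreated cells alone lay in the lower-ranking part of the untreated set. The highest-scoring were 19281275 to 19281655, 4542969 to 4543491, 24343605 to 24343951, 2734210 to 2734780 and 1167434 to 1167840, and the first ranked 8874th of 14377. It was covered over 0 bp in both treated libraries and over 381 and 175 bp in the untreated ones, and the authors' peak scores behind it were 2.44 and 1.13.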

How the data were processed

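Labels and headers describe chromatin immunoprecipitation for H3K9ac and H3K9me2 in 8 MDA-MB-231 libraries, and 4 inputs not analysed here. Tools named in the submitters' processing notes, without roles, were MACS2, SICER, Picard, BWA 0.7.5 and Trimmomatic 0.32, and the build was hg19; for settings and depth, nothing was given in the sources used here. The deposited lists hold interval positions and the authors' score per interval: from 0.3 in H3K9ac lists, from 5 in H3K9me2 lists, and from 1.301 in the reproducible sets. Starts and ends, other deposited columns, were used as hg19 positions, counted from 1; H3K9me2 ends name the last base. Scores ranked intervals within a list only.

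Covered bases, gaps, domains and overlaps of at least 1 bp were computed in Python 3.11.15 (pandas 2.3.3, numpy 2.4.6, SciPy 1.17.1). Shares of 1 Mb bins of 23 chromosomes were fitted in R 4.3.3 by limma 3.58.1, letting the variance follow the mean, and leaving out bins at 0 in all 4 libraries. Single values were compared by exact permutation of 2 libraries against 2. The code was tested on simulated data. Wilson intervals cover counting error only. Replicates are called biological in the design text.

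The arm, lists of named bins and tests were chosen with earlier results of these data known. Named bins are the 5 with the highest and the 5 with the lowest mean H3K9me2, the 3 with the largest difference in each direction per mark and the 3 with the widest range of H3K9me2. The 5 longest common stretches and the 5 highest-scoring reproducible, gained and lost regions are named too. No sequence was printed, since no hg19 genome was used.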

Additional observations from a re-analysis of the deposited data

How the results depend on the processing

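Of the alternatives to the comparisons between conditions and arms, 57 left the result as it was, 5 reversed a direction and 7 moved a count. A result was taken as left if a difference kept its sign, if 0 bins passed the limma threshold or if a count of regions changed little. The p-values of differences did not enter. Some of the 57 could not have come out otherwise. Averaging the differences of same-numbered libraries always returns the difference between condition means. Cutting the reproducible sets to equal size leaves the untreated set, the smaller one, whole, so its lost regions cannot change. The difference in H3K9ac covered length, -132 kb, was 135 kb without untreated replicate 1 (range over libraries left out -399 to 135 kb), 62.8 kb with lists of equal length and 71.1 kb with the higher-scoring part of each list. The difference in domain length became 1.0 kb with gaps of up to 10 kb joined, and ran from -88.8 to -9.25 kb over libraries left out. The short-arm minus long-arm difference in peaks per Mb ran from -4.45 to 1.19. Gained regions numbered 38 to 57 with an untreated library left out, 67 when at least 50% of a region had to be covered, 4 with sets of equal size and 77 when judged from the other reproducible set; lost regions numbered 15 to 16. H3K9ac bins past the limma threshold ranged from 0 to 25 over libraries left out. The cause of these shifts was not tested.

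Both conditions use replicate numbers 1 and 2, and no label says that a number marks a shared batch or day. In a replicate block fit, limma called 9 H3K9ac bins of the arm, 2 higher and 7 lower, and 0 H3K9me2 bins. Over the genome that fit called 15.0% of the H3K9ac bins higher and 3.51% lower. The block changed no other call, and it cannot change a difference between condition means. The bins at 2000001, 3000001, 4000001, 14000001 and 33000001, named above for a difference of H3K9ac, were among these 9. Deviations of same-numbered libraries correlated at 0.198 over H3K9ac bins and at -0.394 over H3K9me2 bins of the genome. Over the bins of the arm they correlated at 0.383 for H3K9ac and at -0.604 for H3K9me2. Crossing the numbers, an alternative chosen after the data were seen, gave 0 bins of the arm past the limma threshold for either mark. Among single bins, the H3K9me2 difference at 8000001 ranged from -14.95 to 0.7 points and that at 31000001 from -0.825 to 10.3 points over libraries left out, and the H3K9ac difference at 43000001 from -0.241 to 1.48 points. The other 9 of the 12 bins named for a difference between conditions kept their direction; other named bins were not run. Depth is unknown, and 2 libraries per condition allow no exact p below 0.33.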
